A study of Mus musculus with 6 samples.

Results

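Transcript levels of 10 genes of the mTORC1, 4E-BP and FOXO pathways, namely Mtor, Rptor, Rheb, Tsc1, Tsc2, Rps6kb1, Eif4ebp1, Eif4ebp2, Foxo1 and Foxo3, were compared between immature NK cells that do or do not carry a deletion of Myc. The genes were taken by name for their place in these pathways, and no measured value enters the rule that lists them. They are 10 of the 25690 gene symbols to which the estimated counts were summed, and all 10 were among the 15474 genes that passed the filter on low counts and were tested.

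The cells were CD27SP NK cells, immature NK cells of the bone marrow that were sorted as NK1.1+ and CD27+ and negative for CD11b and CD3, among other markers. Each genotype, Ncr1cre Myc wt/wt (labelled Wild Type, written wt/wt below) and Ncr1cre Myc fl/fl (labelled Myc-/-, written fl/fl), gave 3 RNA libraries, numbered 1, 2 and 4 in both. Both genotypes carry the Cre recombinase expressed from Ncr1, the gene of the receptor NKp46, so the floxed Myc alleles are lost only in cells that have begun to express it and the wt/wt controls carry Cre without a floxed allele. The mice were on a C57BL/6 background and, per the study's methods, matched for sex and for age in weeks within a range stated for all its experiments, and no treatment of these sorted cells is given. The labels do not say whether each library comes from a single mouse or from a pool, so p-values measure the spread between these libraries.

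mTORC1 is a kinase complex on the lysosome that couples growth factors and amino acids to protein synthesis. It consists of the kinase mTOR, the scaffold Raptor (gene Rptor) and further subunits, is switched on by the GTPase Rheb and is held back by the complex of Tsc1 and Tsc2, which makes Rheb hydrolyse its GTP. Active mTORC1 phosphorylates S6 kinase 1 (Rps6kb1) and the 4E-BPs (Eif4ebp1, Eif4ebp2), which otherwise bind eIF4E and hold back cap-dependent translation. FOXO1 and FOXO3 are transcription factors that AKT, a kinase of the same growth factor pathway, keeps out of the nucleus, and in NK cells IL-15 is a known activator of mTORC1.

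The estimated counts, which the authors' software assigned to each transcript, summed to 8101219 in wt/wt library 1 and to between 54550907 and 64962491 in the other 5 libraries, so wt/wt library 1 was the least precise. Myc itself stood at 200.5, 183 and 164 CPM (counts scaled to library size with TMM factors) in wt/wt libraries 1, 2 and 4 and at 61.5, 64.6 and 76.5 CPM in the fl/fl libraries. Its log2 fold change of −1.44 ± 0.15 (SE) passed the threshold used throughout, which asks for an adjusted p below 0.01 in edgeR's quasi-likelihood test together with a log2 fold change of 0.5 or more in either direction (adjusted p = 0.00189), but missed it without replicate 1 (−1.30, adjusted p = 0.0105). The 10 NK cell markers summed to between 14659.9 and 15252 CPM in wt/wt and between 16731 and 17479 CPM in fl/fl, none of them passed, and Nkg7 and Il2rb were the most abundant. Cd27 stood at 225 to 278 CPM and Itgam (CD11b) at 34.6 to 46.8 CPM over all 6 libraries, neither past the threshold. Markers of other cells moved with the genotype. All 8 basophil and mast cell markers rose, led by Prss34 and Mcpt8, with sums of 15.1 to 18.5 CPM in wt/wt and 122 to 334 CPM in fl/fl. Of the neutrophil and myeloid progenitor markers 4 of 8 tested rose (Mpo and Elane the most abundant, sums 85.4 to 140.0 against 538 to 897 CPM), and of the monocyte markers 4 of 6 (sums 1660.3 to 1866 against 2087 to 2371 CPM). Of the 2 most abundant monocyte markers, Ly6c2 rose and Ccr2 did not pass. Of the erythroid markers 2 of 5 rose (sums 11.3 to 61.1 against 128 to 247 CPM), not counting the most abundant, Hba-a1 and Alas2, which did not pass. None of 4 B cell markers tested passed (Cd79b and Cd79a the most abundant, list sums 4.16 to 7.74 against 10.6 to 12.96 CPM). Nor did any of 5 T cell markers (Cd3g and Cd3d the most abundant, list sums 227 to 473 against 237 to 317 CPM). No marker was at 0 in all libraries, and Fcer1a, Ltf and Pax5 were among those at 0 in at least 1. The part of these cells in the values below was not tested, and in bulk RNA fewer cells of a type and less RNA per cell cannot be told apart.

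None of the 10 genes passed the threshold, whereas 2.15% of all tested genes did. Their log2 fold changes ran from −0.27 for Eif4ebp2 to 0.58 for Tsc2, with a median of −0.06 beside 0.01 over all genes tested, 6 below 0 and 4 above. Without adjustment, 1 of the 10, Tsc2, had an edgeR p under 0.05, against 22.5% of all genes. DESeq2 called 1 of the 10, again Tsc2, where it called 7.71% of all genes, and limma-trend called none, where it called 1.43%. The CPM of the genotypes did not overlap for 3 of the 10, with Tsc2 higher and Rheb and Eif4ebp2 lower in fl/fl, against 31.3% of all genes. Read against these background shares, 0 called genes and 3 of 10 set apart are near what the table as a whole gave.

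**Figure D1:**
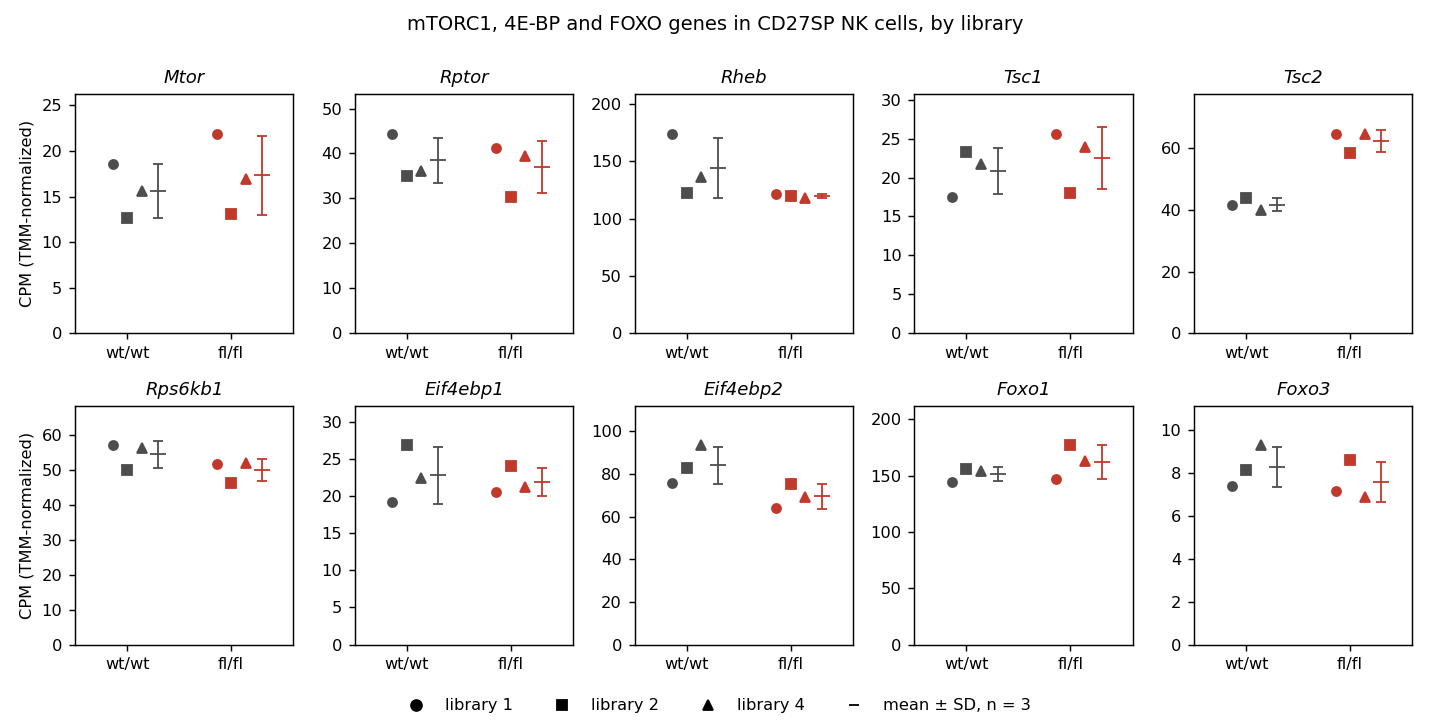
TMM-normalized CPM of each of the 10 genes on axes that start at 0, with 1 symbol per library (shape gives the library number), wt/wt in grey and fl/fl in red, and the mean ± SD of 3 libraries beside them. The fl/fl libraries of Tsc2 (58.4 to 64.6 CPM) lie above all wt/wt libraries (39.8 to 43.9 CPM), those of Rheb and Eif4ebp2 lie below, and the other 7 genes overlap.

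Mtor, the catalytic subunit of mTORC1 and mTORC2 (GRCm38 chr4:148448611-148557683, plus strand), stood at 18.6, 12.7 and 15.6 CPM in wt/wt libraries 1, 2 and 4 and at 21.8, 13.1 and 17.0 CPM in fl/fl. Each genotype had its highest value in library 1 and its lowest in library 2, and the groups overlapped. The log2 fold change was 0.13 ± 0.18 (SE, 95% interval −0.27 to 0.54, edgeR adjusted p = 0.740). Rptor, the gene of the scaffold that recruits mTORC1 substrates (chr11:119602905-119899576, plus strand), gave 44.3, 35.1 and 36.1 CPM in wt/wt and 41.1, 30.3 and 39.5 CPM in fl/fl. The ranges overlapped, with wt/wt library 1 highest and fl/fl library 2 lowest. Its log2 fold change was −0.06 ± 0.15 (95% interval −0.40 to 0.28, adjusted p = 0.871).

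Rheb, the small GTPase that activates mTORC1 (chr5:24802823-24842624, minus strand), stood at 174, 123 and 137 CPM in wt/wt and 121, 119.8 and 118 CPM in fl/fl. The fl/fl libraries differed little among themselves and lay just under the lowest wt/wt library, while wt/wt library 1, the shallow library, stood highest. The log2 fold change of −0.25 ± 0.14 (95% interval −0.57 to 0.07, edgeR adjusted p = 0.348) shrank to −0.12 without replicate 1. Since Myc and its partner Max bind the E-box CACGTG, the promoter windows of the RefSeq table (GRCm38.p6, 250 bases before to 50 after each start, both strands, the motif being its own reverse complement) were searched for it. Of the 9 genes found in the table, all but Eif4ebp1, Rheb alone had the E-box, 96 bases before its start, where 7.15% of all 32851 windows and 9.29% of the 13803 windows of tested genes had 1. The 30 bases around it, at chr5:24842440-24842469 on the minus strand with the E-box in capitals, are shown because this is the sole match among the 9 windows.
Rheb: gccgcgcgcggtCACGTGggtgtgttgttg
These bases lie within an annotated Rheb exon in GENCODE. The match describes the sequence and not binding, and the windows without one say nothing of Myc elsewhere in those genes.

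Tsc1, the gene of hamartin, which stabilizes Tsc2 (chr2:28641228-28691167, plus strand), stood at 17.5, 23.3 and 21.8 CPM in wt/wt and 25.6, 18.1 and 23.9 CPM in fl/fl. The groups overlapped, and library 1 was lowest in wt/wt but highest in fl/fl. The log2 fold change was 0.09 ± 0.21 (95% interval −0.37 to 0.56, edgeR adjusted p = 0.850). Tsc2, the gene of tuberin, the GTPase-activating subunit that acts on Rheb (chr17:24595816-24632630, minus strand), stood at 41.6, 43.9 and 39.8 CPM in wt/wt (41.8 ± 2.04, SD, n = 3) and at 64.6, 58.4 and 64.5 CPM in fl/fl (62.5 ± 3.56). All 3 fl/fl libraries lay above all 3 wt/wt libraries, the difference of the means being larger than the SD of either genotype. The log2 fold change was 0.58 ± 0.14 (95% interval 0.26 to 0.90). The edgeR adjusted p of 0.0368 missed the limit of 0.01 but was under 0.05, as it was for 7.83% of all genes, 4.45% in the higher and 3.38% in the lower direction. The adjusted p ran from 0.0043 in DESeq2 to 0.409 when the deposited effective lengths were used as offsets, where the log2 fold change was 0.25, and was 0.0541 to 0.213 with a replicate number left out.

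Tsc2 shares 693 of its 9620 annotated exonic bases with Pkd1, the polycystin-1 gene that lies on the opposite strand and ends where Tsc2 ends. The library kit does not mark strand, so reads from these bases cannot be told apart. Pkd1 stood at 17.9, 23.7 and 24.2 CPM in wt/wt and 25.5, 35.0 and 34.2 CPM in fl/fl, a log2 fold change of 0.52 ± 0.16 (edgeR adjusted p = 0.0806). Its fl/fl libraries also lay above all wt/wt libraries. The part of the shared bases in either value was not tested. Overlaps of fewer bases with a gene on the opposite strand affect Rps6kb1 with Rnft1 (155 of 8658 bases; Rnft1 log2 fold change −0.14 ± 0.16), Foxo1 with the antisense gene Gm20402 (674 of 8665 bases) and Rptor with Rptoros (84 of 13471 bases).

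Rps6kb1, which encodes S6 kinase 1 (chr11:86498871-86544805, minus strand), stood at 56.9, 49.9 and 56.1 CPM in wt/wt and 51.6, 46.1 and 51.8 CPM in fl/fl. The groups overlapped, although each fl/fl library was below the wt/wt library of the same number. The log2 fold change was −0.12 ± 0.13 (95% interval −0.42 to 0.18, edgeR adjusted p = 0.663). Eif4ebp1, the gene of 4E-BP1 (chr8:27260329-27276674, plus strand), gave 19.2, 26.9 and 22.4 CPM in wt/wt and 20.5, 24.1 and 21.3 CPM in fl/fl. The fl/fl values lay inside the wt/wt range, with a log2 fold change of −0.05 ± 0.17 (95% interval −0.43 to 0.33, adjusted p = 0.914). Eif4ebp2, the gene of 4E-BP2 (chr10:61428491-61452661, minus strand), stood at 76.0, 82.9 and 93.5 CPM in wt/wt and 64.0, 75.5 and 69.1 CPM in fl/fl. All fl/fl libraries lay under all wt/wt libraries, the nearest by less than 1 SD of either group. The log2 fold change was −0.27 ± 0.14 (95% interval −0.58 to 0.03, edgeR adjusted p = 0.274).

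Foxo1 (chr3:52268336-52353221, plus strand) stood at 144, 156 and 154 CPM in wt/wt and 147, 177 and 163 CPM in fl/fl. Library 1 was lowest in both genotypes and the groups overlapped. Its log2 fold change of 0.10 ± 0.13 had the narrowest interval of the 10 genes, −0.19 to 0.39 (edgeR adjusted p = 0.737). Foxo3 (chr10:42181841-42276755, minus strand) rested on the fewest reads, with 7.41, 8.13 and 9.28 CPM in wt/wt and 7.16, 8.61 and 6.88 CPM in fl/fl, from 57 estimated counts in wt/wt library 1 and 411 to 608 in the others. The groups overlapped, and the log2 fold change of −0.14 ± 0.23 had the widest interval, −0.66 to 0.39 (adjusted p = 0.804). With effective length offsets it was 0.42, and the mean effective length of Foxo3 was 6457, 3892 and 4510.3 bases in wt/wt and 3825, 3221 and 3005 bases in fl/fl, with no overlap. The sign also turned with offsets for Mtor (−0.037) and Rps6kb1 (0.098), without replicate 2 for Rptor (0.024) and Eif4ebp1 (0.015), and without replicate 1 for Tsc1 (−0.11).

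**Figure D2:**
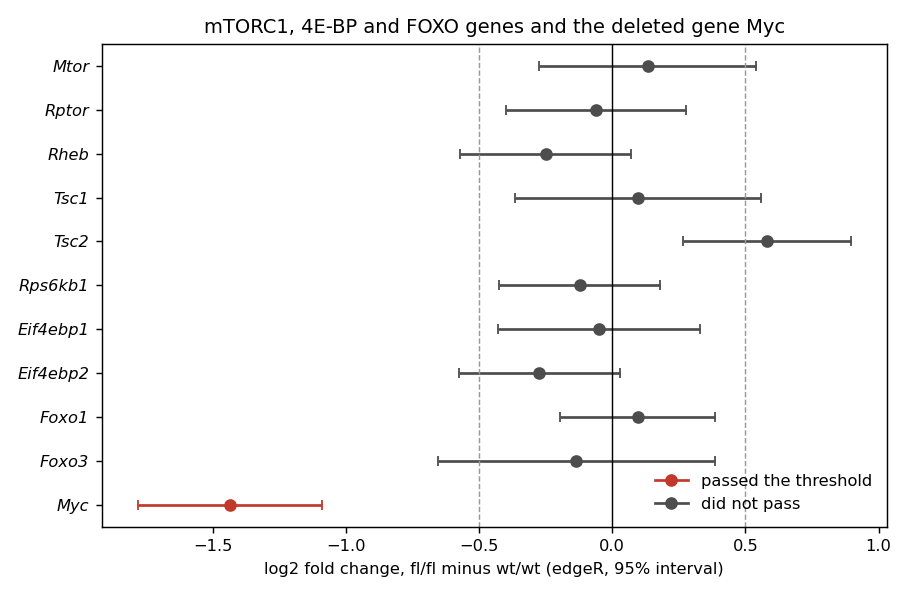
Log2 fold change (fl/fl minus wt/wt) of the 10 genes and of Myc from edgeR, with 95% intervals; dashed lines mark the fold change limit of 0.5 in either direction. Myc (−1.44) is the only gene drawn that passed, the interval of Tsc2 (0.26 to 0.90) does not include 0, and those of the other 9 genes do.

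Levels were set side by side in TPM, which scale each transcript's count by its length. In wt/wt, Rheb stood highest at 161 ± 35.1 TPM (SD, n = 3), followed by Eif4ebp2 at 58.1 ± 5.11, Eif4ebp1 at 33.1 ± 7.08, Rps6kb1 at 32.1 ± 1.22, Foxo1 at 22.6 ± 2.01, Tsc2 at 19.8 ± 1.26, Rptor at 11.4 ± 0.62, Tsc1 at 11.02 ± 1.97, Mtor at 6.66 ± 0.998 and Foxo3 at 2.34 ± 0.80 TPM. Neighbours in this order overlapped between libraries for Eif4ebp1 and Rps6kb1, for Foxo1 and Tsc2, and for Rptor and Tsc1, and not for the other neighbours. Summed over all transcripts, Rheb therefore exceeded Mtor 24.1-fold per length in wt/wt. This ratio depends on the transcripts counted, since coding transcripts alone gave 92.7 TPM for Rheb and 5.66 TPM for Mtor in wt/wt. In fl/fl the same genes stood at 131 ± 5.27 (Rheb), 52.5 ± 4.38 (Eif4ebp2), 32.8 ± 3.69 (Eif4ebp1), 36.4 ± 3.73 (Rps6kb1), 25.7 ± 1.91 (Foxo1), 24.8 ± 2.54 (Tsc2), 11.9 ± 2.35 (Rptor), 12.5 ± 0.58 (Tsc1), 6.89 ± 1.37 (Mtor) and 3.21 ± 0.51 TPM (Foxo3). On this scale the genotypes were apart for 2 of the 10, Rheb and Tsc2, beside 30.1% of all genes. Eif4ebp2 overlapped (52.3 to 62.2 TPM in wt/wt, 47.5 to 55.6 TPM in fl/fl). On its coding transcript alone, Rheb overlapped, at 104.5, 82.5 and 91.0 TPM in wt/wt and 90.4, 84.3 and 82.0 TPM in fl/fl. Tsc2 gave 19.2, 21.2 and 19.0 TPM in wt/wt and 27.1, 22.1 and 25.3 TPM in fl/fl, so the nearest libraries were closer in TPM than in CPM.

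**Figure D3:**
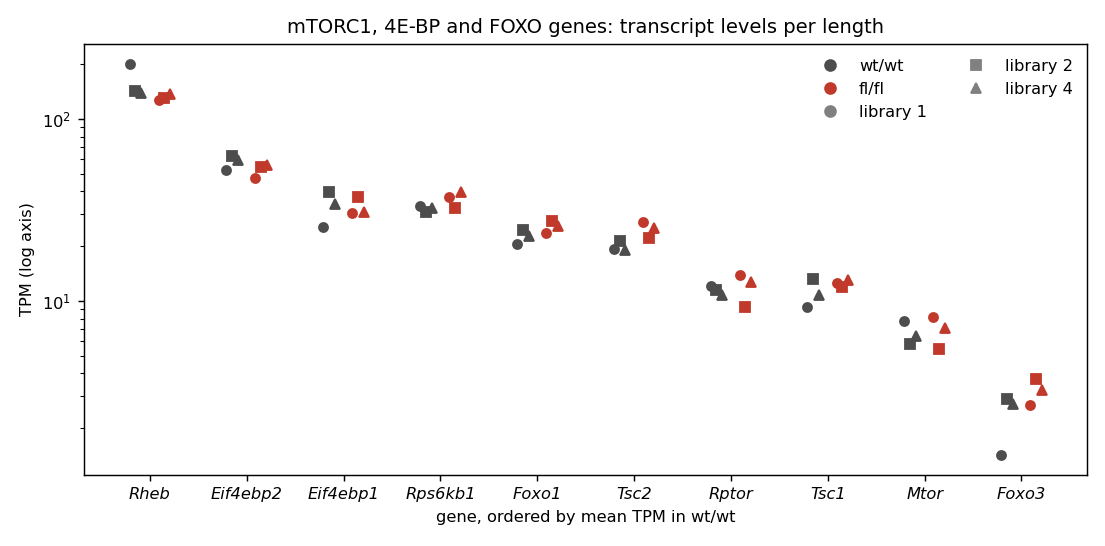
TPM of the 10 genes per library on a log axis, ordered by the wt/wt mean, wt/wt in grey and fl/fl in red with 1 symbol shape per library number. Rheb stands highest (161 TPM mean in wt/wt) and Foxo3 lowest (2.34 TPM), and wt/wt library 1, the shallow library, is the lowest of its group for Foxo3 and the highest for Rheb.

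Within pairs of related genes, the division of TPM summed over all transcripts, coding or not, overlapped between the genotypes. Eif4ebp1 made up 36.0 ± 3.07% (SD, n = 3) of the TPM of both 4E-BP genes in wt/wt and 38.4 ± 2.45% in fl/fl, so Eif4ebp2 was the larger share in all libraries. Foxo1 made up 90.8 ± 2.37% of Foxo1 plus Foxo3 in wt/wt and 88.9 ± 0.84% in fl/fl. Tsc1 made up 35.6 ± 2.90% of Tsc1 plus Tsc2 in wt/wt and 33.6 ± 1.65% in fl/fl. In estimated counts, which are not scaled by length, the share of Tsc1 was 29.7, 34.6 and 35.3% in wt/wt and 28.4, 23.6 and 27.1% in fl/fl, with no overlap. The share of Foxo1 in estimated counts was also apart, at 95.1, 95.05 and 94.3% in wt/wt and 95.3, 95.4 and 95.9% in fl/fl, while that of Eif4ebp1 overlapped.

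The transcripts to which the TPM were assigned differed between the genes, and the split of reads between overlapping transcripts is an estimate of the authors' software. Foxo1 has 1 annotated transcript, and all transcripts of Eif4ebp2 and Foxo3 are protein-coding. Coding transcripts held 85.8 ± 8.67% of the Mtor TPM in wt/wt and 89.1 ± 9.11% in fl/fl. Of the 2 coding Mtor transcripts, the 1003-base Mtor-201 held 53.0% in wt/wt and 49.4% in fl/fl. The 8564-base Mtor-202 held 31.4, 31.9 and 35.2% in wt/wt and 44.2, 37.6 and 37.3% in fl/fl, with no overlap. Coding transcripts held 58.5 ± 6.89% and 65.2 ± 5.85% of the Rheb TPM, the rest lying mostly on the retained-intron transcript Rheb-202. Rptor was split between the coding transcript Rptor-201, the nonsense-mediated decay transcript Rptor-211 and several retained-intron transcripts. Its coding share was 37.99, 9.48 and 21.1% in wt/wt and 37.5, 43.0 and 31.3% in fl/fl, so the wt/wt libraries differed more among themselves than the groups did. Tsc1 had 7.84 ± 2.55% on coding transcripts in wt/wt and 6.15 ± 1.44% in fl/fl, with the decay transcript Tsc1-211 the largest (43.5% and 39.1%). For Eif4ebp1 the coding transcript Eif4ebp1-201 held 18.6 ± 2.47% and 20.5 ± 2.38%, the rest being the shorter processed transcript Eif4ebp1-202.

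Of the 7 genes with both kinds of transcript, the coding share was apart between the genotypes for 2, Tsc2 and Rps6kb1, beside 11.5% of the 9615 tested genes that have both kinds. For Tsc2, with 22 annotated transcripts of which 8 are coding, it was 38.8, 45.3 and 45.3% in wt/wt and 60.2, 64.9 and 63.6% in fl/fl. The summed coding TPM of Tsc2 was 7.43, 9.61 and 8.59 in wt/wt and 16.3, 14.3 and 16.1 in fl/fl, so the genotypes lay further apart on coding transcripts than on all transcripts together. The coding transcript Tsc2-205 lay above its wt/wt range in every fl/fl library (1.85 ± 0.46 against 4.31 ± 0.12 TPM), and so did Tsc2-221 (5.06 ± 1.03 against 7.52 ± 1.12 TPM), whereas the short retained-intron transcript Tsc2-210 overlapped (3.52 ± 1.54 against 1.72 ± 1.19 TPM). The mean effective length of Tsc2 moved accordingly, from 2688, 2863 and 2771 bases in wt/wt to 3429, 3668 and 3598 bases in fl/fl, and a TPM is a count scaled by this length. For Rps6kb1 the coding share was 13.9, 17.4 and 14.3% in wt/wt and 22.8, 22.2 and 21.8% in fl/fl, and in estimated counts it overlapped. That difference lay on the 555-base transcript Rps6kb1-204, at 0, 0.54 and 0 TPM in wt/wt and 3.83, 2.74 and 3.71 TPM in fl/fl, which rested on at most 8.11 estimated counts in any wt/wt library and 39.8 to 58.8 in fl/fl. The retained-intron transcript Rps6kb1-201 held the largest share in both genotypes (48.0% in wt/wt and 38.02% in fl/fl). No test was run on transcripts.

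**Figure D4:**
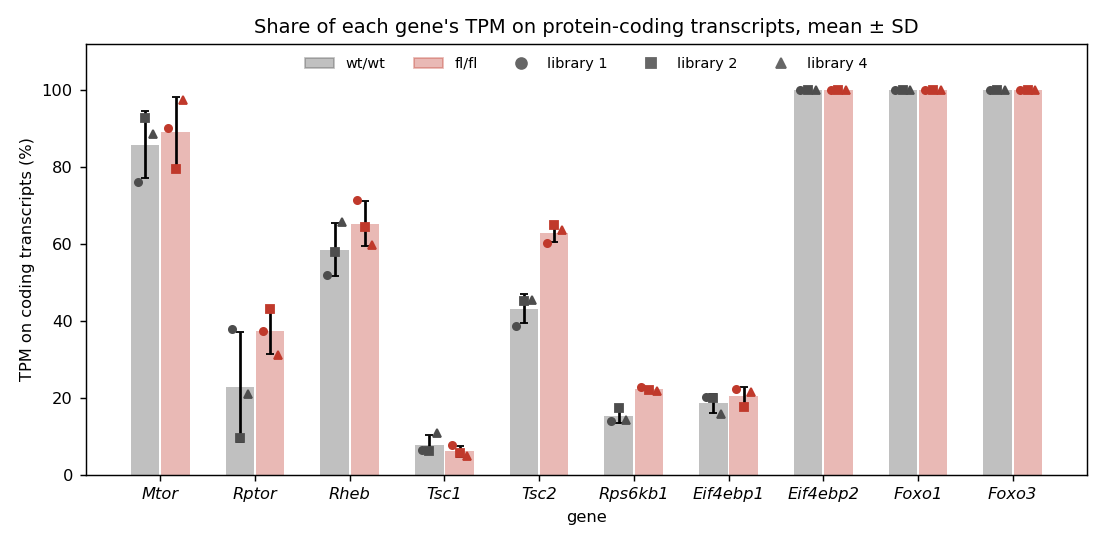
Percent of each gene's TPM on protein-coding transcripts, bars for the mean and SD of 3 libraries and 1 symbol per library, wt/wt in grey and fl/fl in red, on an axis that starts at 0. Tsc2 (43.1% in wt/wt, 62.9% in fl/fl) and Rps6kb1 (15.2% and 22.3%) are the genes whose libraries do not overlap.

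The 3 tested genes whose log2 CPM followed Tsc2 most closely over the 6 libraries were Itgal, the integrin subunit CD11a, Fkbp15 and Lrba, with Pearson r of 0.998, 0.994 and 0.994. As many as 224 genes exceeded an r of 0.95 over these 6 libraries. Their log2 fold changes were 0.57 ± 0.14 for Itgal, 0.24 ± 0.13 for Fkbp15 and 0.62 ± 0.19 for Lrba, and none passed the threshold.

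Of the other genes of the pathway, 89 were taken in 4 lists, and 86 were tested. Rps6 passed as lower and Inpp4b as higher, 1 each, where 0.872% and 1.28% of all tested genes did. The CPM of the genotypes did not overlap for 32 of the 86, beside 31.3% of all genes, and 22 had an unadjusted p under 0.05, beside 22.5%. The median log2 fold change of the 86 was 0.00060, with 42 below 0 and 44 above.

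None of the 10 other subunits and assembly factors of mTORC1 and mTORC2 passed in edgeR, DESeq2 or limma-trend, where 2.15%, 7.71% and 1.43% of all genes did, with 2 of 10 (Telo2 and Akt1s1) at an unadjusted edgeR p under 0.05, beside 22.5% of all genes, and a median log2 fold change of −0.11. The smallest adjusted p were those of Telo2, an assembly factor of mTOR family kinases (33.7 ± 2.09 CPM in wt/wt, 24.2 ± 3.21 in fl/fl, log2 fold change −0.48 ± 0.17, edgeR adjusted p = 0.125), Akt1s1, which encodes the mTORC1 inhibitor PRAS40 (−0.52 ± 0.23, adjusted p = 0.221), and Prr5, a subunit of mTORC2 (−0.31 ± 0.19, adjusted p = 0.380, and −0.026 without replicate 1). Of the 10, Telo2 was the 1 gene apart between the genotypes, beside 31.3% of all genes.

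None of the 29 genes of amino acid sensing, the Rag GTPases included, passed in edgeR or limma-trend, where 2.15% and 1.43% of all genes did, 1 (Sesn1) passed in DESeq2, where 7.71% of all genes did, 5 had an unadjusted edgeR p under 0.05, beside 22.5%, and the genotypes were apart for 8, beside 31.3%, with a median log2 fold change of −0.03. Sesn1, the gene of a leucine sensor of the sestrin family, stood at 186, 126 and 108 CPM in wt/wt and 97.6, 99.2 and 65.7 CPM in fl/fl. Its fl/fl libraries lay under all wt/wt libraries, and its log2 fold change was −0.66 ± 0.15 (edgeR adjusted p = 0.0284). Castor1, the gene of an arginine sensor, gave 10.8, 12.5 and 16.4 CPM in wt/wt and 24.8, 32.5 and 17.7 CPM in fl/fl (0.89 ± 0.26, adjusted p = 0.0682), with no overlap, the nearest libraries being wt/wt library 4 and fl/fl library 4. Rragb, the gene of a Rag GTPase, gave 18.3 ± 2.05 CPM in wt/wt and 11.7 ± 1.13 CPM in fl/fl (−0.63 ± 0.20, adjusted p = 0.0839). The other genes of the 5, named after their values were seen, were Castor2 (0.73 ± 0.23) and Mios (−0.46 ± 0.18).

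Of the 28 tested genes of the PI3K, AKT, AMPK and REDD1 inputs, 1 passed, Inpp4b, where 2.15% of all genes did, 9 had an unadjusted edgeR p under 0.05, beside 22.5%, and the genotypes were apart for 12, beside 31.3%, with a median log2 fold change of 0.13. Irs1 and Prkaa2 were too low to be tested. Inpp4b, which encodes a phosphatase that removes a phosphate from the lipid PI(3,4)P2, a product of PI3K signalling, stood at 48.1, 51.5 and 63.0 CPM in wt/wt and 133, 135 and 148 CPM in fl/fl. All fl/fl libraries lay above all wt/wt libraries, and the log2 fold change was 1.36 ± 0.14 (95% interval 1.06 to 1.66, edgeR adjusted p = 0.00154), past the threshold in all alternatives but the offsets (adjusted p = 0.0115). Pik3cd, the gene of the leukocyte PI3K subunit p110δ, stood at 368 ± 16.2 CPM in wt/wt and 523 ± 45.0 CPM in fl/fl (0.50 ± 0.14, adjusted p = 0.0554). Inpp5d, the gene of the phosphatase SHIP1, gave 275 ± 16.2 CPM in wt/wt and 385 ± 39.5 CPM in fl/fl (0.48 ± 0.14, adjusted p = 0.0599). Both were apart between the genotypes.

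Of the 19 tested genes of the S6 kinase, 4E-BP and autophagy arm, 1 passed, Rps6, where 2.15% of all genes did, 6 had an unadjusted edgeR p under 0.05, beside 22.5%, and the genotypes were apart for 11, beside 31.3%, with a median log2 fold change of 0.12. Eif4ebp3, the remaining 4E-BP gene, was too low to be tested. Rps6, the ribosomal protein that S6 kinase phosphorylates, stood at 679, 470 and 571 CPM in wt/wt and 292, 274 and 251 CPM in fl/fl. All fl/fl libraries lay under all wt/wt libraries, and the log2 fold change was −1.06 ± 0.15 (edgeR adjusted p = 0.00432), which missed the threshold without replicate 1 (adjusted p = 0.0197) and with effective length offsets (adjusted p = 0.0154). As a ribosomal protein gene it has processed pseudogenes in the mouse genome, so its level is uncertain where reads can be shared with these copies. Larp1, which encodes an mTORC1 target that binds the 5′ TOP motif of ribosomal protein mRNAs, gave 141, 178 and 179 CPM in wt/wt and 91.8, 62.2 and 106 CPM in fl/fl (−0.97 ± 0.18, adjusted p = 0.0134), again without overlap. Tfe3, the gene of a lysosomal transcription factor that mTORC1 keeps in the cytosol, gave 18.8 ± 1.77 CPM in wt/wt and 30.3 ± 1.72 CPM in fl/fl (0.69 ± 0.17, adjusted p = 0.0369).

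**Figure D5:**
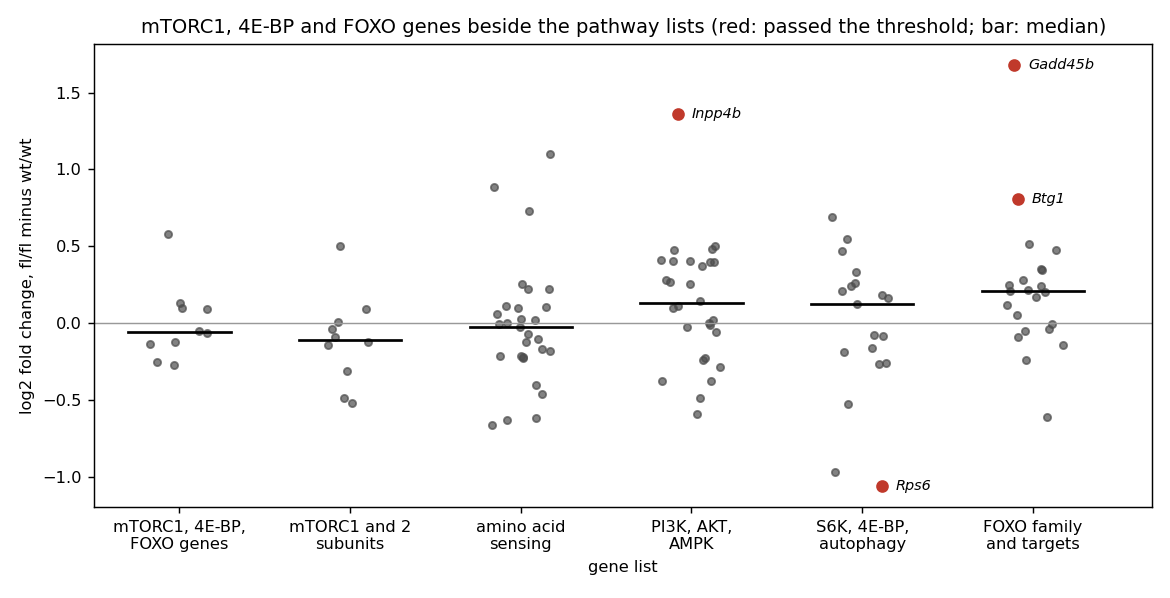
Log2 fold change (fl/fl minus wt/wt, edgeR) of every tested gene of the 10 genes and of 5 lists, 1 point per gene, with the median of each list as a bar and the genes past the threshold in red. The 4 genes past it, Rps6 (−1.06), Inpp4b (1.36), Gadd45b (1.68) and Btg1 (0.80), lie in 3 of the 5 lists, and the 10 genes stay between −0.27 and 0.58.

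Of 23 further FOXO family members and textbook FOXO target genes, 22 were tested, Foxo6 being too low. Gadd45b and Btg1 rose and none fell past the threshold, where 1.28% of all genes rose and 0.872% fell. Of the 22, 6 had an unadjusted edgeR p under 0.05, beside 22.5% of all genes, and the genotypes were apart for 6, beside 31.3%. The median log2 fold change was 0.21, with 7 genes below 0 and 15 above. Gadd45b, the gene of a stress-response protein, stood at 9.35, 12.5 and 14.4 CPM in wt/wt and 29.5, 37.4 and 50.01 CPM in fl/fl. Its log2 fold change was 1.68 ± 0.17 (edgeR adjusted p = 0.00169, and 0.01004 in a fit without wt/wt library 1 and without the replicate block). Btg1, the gene of an antiproliferative factor linked to lymphocyte quiescence, stood at 916, 897 and 1032 CPM in wt/wt and 1628, 1585 and 1752 CPM in fl/fl. All fl/fl libraries were higher, with a log2 fold change of 0.80 ± 0.13 (adjusted p = 0.00781). Leaving out any single replicate number ended this call, with edgeR adjusted p of 0.0224 to 0.0318 at log2 fold changes of 0.79 to 0.81. S1pr1, the gene of the receptor for lymphocyte egress, went the other way without passing, at 97.6, 118 and 80.3 CPM in wt/wt and 66.6, 78.8 and 49.8 CPM in fl/fl (−0.61 ± 0.13, adjusted p = 0.0226). The other genes with an unadjusted edgeR p under 0.05, named after their values were seen, were Txnip (0.47 ± 0.13), Klf2 (0.35 ± 0.13) and Il7r (0.51 ± 0.19). Of these, Txnip was apart between the genotypes, and Klf2 and Il7r overlapped. These counts stand beside the rise of basophil, myeloid and erythroid markers given above, whose part in them was not tested.

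The FOXO motif TGTTTAC, or GTAAACA on the other strand, was found in 3.65% of all promoter windows and 2.77% of the windows of tested genes. It was in none of the 9 windows of the 10 genes, and in the window of Btg1, 204 bases before its start. The window of Gadd45b held the E-box CACGTG, 185 bases before its start. Both stretches are shown, at chr10:96616786-96616815 and chr10:80929894-80929923 on the plus strand of GRCm38.p6 with the motif in capitals, because these were the FOXO list genes that passed.
Btg1: gggggtttattTGTTTACaagcagattacg
Gadd45b: agccctgaccccCACGTGgggccgccggag
Neither match shows that a factor binds there. The windows of Inpp4b and Rps6, the other list genes that passed, held neither motif.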

How the data were processed

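The authors sorted the cells, made libraries with SMART-Seq v4 and Nextera kits, which do not mark strand, and sequenced 100-base single-end reads. They deposited, per transcript and library, estimated counts that are not normalized, TPM values scaled by the authors to effective transcript length and library, and both lengths. Their methods name the nf-core RNA-seq pipeline and Salmon with GRCh38, while the deposited columns are those of kallisto and the identifiers are mouse transcripts. How effective lengths were corrected is not given in the sources used here.

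Estimated counts and TPM were summed per symbol of GENCODE mouse M21 (GRCm38), which held 100239 of the 100583 transcripts; the rest carried 0.129 to 0.169% of counts. Counts were rounded, filtered with filterByExpr and fitted in edgeR 4.0.16 (R 4.3.3, TMM, quasi-likelihood F test, Benjamini-Hochberg adjustment over the 15474 genes tested). The terms were genotype and replicate number, because the study calls its differential expression analyses paired. Neither the study nor the labels say what a replicate number marks. DESeq2 1.42.0 and limma 3.58.1 (limma-trend on log2 CPM with a prior count of 2) were alternatives, among others. The script was tested on simulated data. CPM are TMM-normalized, errors are SD over 3 libraries or SE of the fit, and intervals are 95%.

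Replicate numbers did not visibly pair the libraries: deviations from the group means correlated at −0.012, −0.020 and 0.050 for replicates 1, 2 and 4, under the limit of 0.1 set for pairing. No 2 libraries of a genotype agreed within sampling noise (chi-square per degree of freedom 36.5 to 91.9).

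The 10 genes, pathway lists and markers were chosen with earlier results of these data known. Named were the 10 genes, Myc, list genes past the threshold and, in lists with fewer than 3 of these, the 3 genes of smallest adjusted p, the 3 genes most correlated with Tsc2 (the lowest adjusted p of the 10) and the 2 most abundant markers per list. Promoter windows came from RefSeq. Protein sequences were not used here, and values of some single markers are not reported here.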

Additional observations from a re-analysis of the deposited data

How the results depend on the processing

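With counts from 3 libraries per genotype, 1 of them shallow, the intervals of all of the 10 genes but Tsc2 include 0, and a missed threshold does not show equal levels. The fit without the replicate block left the counts of listed genes past the threshold as they were. These were 0 lower and 0 higher of the 10 genes, 1 and 1 of the other pathway genes, and 0 and 2 of the FOXO list. Over all genes tested, that fit gave 184 lower and 203 higher, beside 135 and 198 in the reported fit. It gave −1.43 for Myc, the same side of the threshold. Leaving out replicate numbers in turn gave −1.62 to −1.30 for Myc, which missed the threshold without replicate 1 (adjusted p = 0.0105 in edgeR).

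Of the 10 genes, 1 (Tsc2) passed as higher with DESeq2 and with an adjusted p below 0.05 and no fold change limit, and none in the other alternatives. Other pathway genes, 1 lower and 1 higher in the reported fit, were 3 lower and 3 higher with DESeq2, 0 and 0 with offsets from effective lengths, and 3 and 2 at the looser limit; 4 were lower with no filter on low counts, and leaving out replicates gave 0 to 2 lower (0 without replicate 1, 2 without replicate 2) and 1 to 2 higher. FOXO list genes, 0 lower and 2 higher, had 1 lower with DESeq2, with no filter and at the looser limit, and 1 higher with any replicate left out, without both wt/wt replicate 1 and the replicate block, with limma-trend, with the largest p of the 3 tools, with library size only and with offsets. Btg1 lost its call in 7 of 15 alternatives. Rps6 lost it without replicate 1 (adjusted p = 0.0197 in edgeR) and with offsets (0.0154), Inpp4b with offsets (0.0115), and Gadd45b in the fit that dropped both wt/wt replicate 1 and the replicate block (0.01004). Over all genes, 135 lower and 198 higher became 548 and 645 with DESeq2, 78 and 144 with limma-trend, 25 and 49 with library size only, 6 and 24 with offsets, 378 and 524 with no filter, and 10 and 49 without replicate 1.

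The sign of the log2 fold change turned for genes whose intervals include 0. With offsets it was −0.037 for Mtor, 0.10 for Rps6kb1 and 0.42 for Foxo3. In the fit that dropped both wt/wt replicate 1 and the replicate block it was 0.043 for Rptor and −0.012 for Tsc1. With replicates left out it ran from −0.18 to 0.024 for Rptor, −0.11 to 0.34 for Tsc1, −0.12 to 0.015 for Eif4ebp1 and −0.24 to 0.0016 for Foxo3. The cause was not tested.

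In estimated counts in place of TPM, Eif4ebp1 made up 21.3% (wt/wt) and 24.0% (fl/fl) of the 4E-BP pair, Foxo1 94.8% and 95.5% of its pair and Tsc1 33.2% and 26.3% of its pair. The same change for coding transcripts, chosen after seeing the data, gave, in wt/wt and fl/fl, 97.3% and 98.1% for Mtor, 30.9% and 45.8% for Rptor, 82.1% and 85.4% for Rheb, 23.2% and 18.1% for Tsc1, 78.7% and 87.1% for Tsc2, 35.8% and 39.0% for Rps6kb1, and 44.5% and 48.1% for Eif4ebp1. By construction, counts weigh longer transcripts more.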
